A study of Mus musculus with 6 samples.

Results

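The 10 genes described here take part in the making and transfer of high-energy phosphate in heart muscle. They include the creatine kinases Ckm, Ckmt2 and Ckb and the adenylate kinase Ak1. The others are the inner membrane carriers Slc25a3, Slc25a4 and Slc25a5, and the outer membrane channels Vdac1, Vdac2 and Vdac3. The set is defined by gene name, with no threshold on measured values, but was chosen with earlier results of these data known. All 10 were found among the 39142 nuclear gene rows of the count tables. RNA of crude heart mitochondria was sequenced in 3 libraries of Polrmt knockout mice (L/L, cre; genotype Polrmt -/-) and 3 libraries of control mice (L/L; genotype label Polrmt +/+). Both groups were C57BL/6N mice aged 3 to 4 weeks with the conditional L/L design, in which loxP sites flank exon 3 of Polrmt. In the knockouts, cre expressed from the muscle creatine kinase promoter removes that exon, so heart cells other than muscle are not targeted. That promoter is the promoter of Ckm, one of the genes described here, and only the knockout mice carry the cre transgene. Polrmt encodes the RNA polymerase that transcribes mtDNA.

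ATP made in the mitochondrial matrix leaves through the ADP/ATP carriers (ANT) of the inner membrane, encoded by Slc25a4 and Slc25a5, while Slc25a3 imports the phosphate that ATP synthase needs. Mitochondrial creatine kinase, encoded by Ckmt2 in striated muscle, uses this ATP to phosphorylate creatine, and the product passes the voltage-dependent anion channels (VDAC) of the outer membrane. At the myofibrils and the calcium pumps, the muscle isoform encoded by Ckm turns phosphocreatine back into ATP, and adenylate kinase offers a parallel route. The heart is known to use Slc25a4 as its main ADP/ATP carrier, and Slc25a5 is known as the isoform of dividing and non-muscle cells.

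The libraries held between 1062030 and 1227997 gene counts in knockouts and between 2867067 and 3234729 in controls, of which mtDNA made up 22.8% ± 2.65 in knockouts and 81.9% ± 2.103 in controls (SD, n = 3 each). Nuclear counts were therefore used for scaling: between 838015 and 910826 in knockouts and between 499334 and 586461 in controls. Of these, 5 loci that collect ribosomal RNA reads took 83.4% ± 1.47 in knockouts and 82.2% ± 2.11 in controls (SD, n = 3 each). The members together held 1176 to 1536 counts per knockout library and 591 to 897 per control library. Polrmt itself had 2, 5 and 1 counts in knockouts and 3, 2 and 1 in controls, too few to check the deletion, which gene-level counts do not resolve. The labels number the replicates but do not say that each is a separate animal. Xist had 35 counts in control 2 and 45 in knockout 1, and none in the other libraries. Y-linked genes had counts in those other libraries alone, so each group held animals of both sexes. The p-values measure the spread between these samples, of which a part may be technical. Among the marker genes of heart muscle, all 10 were detected and tested, Tnnt2, Actc1, Pln and Mb fell and none rose, with a summed level of 20971 to 22098 CPM in knockouts and 20027 to 25440 CPM in controls. CPM is used here for counts scaled to the nuclear total of each library, with TMM scaling.

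Among markers of other cells, Acta2 and Pdgfrb of smooth muscle and pericytes, Csf1r and Lyz2 of macrophages and Dpt of fibroblasts fell in the knockouts. Smooth muscle and pericyte markers summed to 183.9 to 274.1 CPM in knockouts and 310.3 to 365.0 CPM in controls (2 of 4 tested fell), and macrophage markers to 35.4 to 41.4 CPM in knockouts and 75.1 to 114.4 CPM in controls (2 of 2 tested fell, with 3 others too low to test). Fibroblast markers (1 of 7 fell) summed to 1568 to 1801 CPM in knockouts and 1803 to 1940 CPM in controls, and endothelial markers (0 of 5 called) to 224.8 to 258.6 CPM in knockouts and 261.0 to 318.9 CPM in controls. Of 9 skeletal muscle markers, 7 had no count in any library, while Acta1, skeletal alpha-actin, rose (log2 change 4.00) and carried nearly all of a summed level of 244.1 to 300.3 CPM in knockouts and 4.77 to 35.2 CPM in controls. Of 4 atrial markers 2 were tested. Nppa, a natriuretic peptide gene, rose (log2 change 1.63), Myl4 was not called (0.29, adjusted p = 0.818 by edgeR), and Myl7 and Sln were too low to test. Fewer cells of a type and less RNA per cell cannot be told apart in such samples, nor can a transcript's amount in the heart and its share in the mitochondrial preparation. The part of these cell types in the results below was not tested.

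The promoters shown are those of the ADP/ATP carrier pair, of which Slc25a5 rose and Slc25a4 did not pass the test, and of Ckm, whose promoter drives cre there. Each line gives the 250 bases before the RefSeq start site (GRCm38.p6), 5′ to 3′ on the gene's strand as the table gives it. For Slc25a4 and Ckm the bases that follow the window were found in the gene's GENCODE transcripts, whereas the RefSeq start of Slc25a5 lies upstream of its GENCODE start, so that check was not possible for the Slc25a5 window. The outermost GENCODE starts of Slc25a4 (46211284) and Ckm (19404776) lie upstream of the RefSeq starts used. The Slc25a4 window thus lies mostly, and the Ckm window wholly, inside the GENCODE gene. Capitals mark matches, on either strand, to 6 motifs: the TATA box TATAAA, the CCAAT box CCAAT, the GC box GGGCGG, the E-box CANNTG, the ERR site TNAAGGTCA and the ATF4 composite site TGATGNAA.
Slc25a5, chrX:36795347-36795596, plus strand: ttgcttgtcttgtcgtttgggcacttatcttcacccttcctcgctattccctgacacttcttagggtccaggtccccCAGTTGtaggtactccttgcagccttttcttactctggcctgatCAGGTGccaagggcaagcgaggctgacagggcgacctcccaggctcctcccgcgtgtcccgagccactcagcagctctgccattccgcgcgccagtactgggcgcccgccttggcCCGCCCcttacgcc
Slc25a4, chr8:46211063-46211312, minus strand: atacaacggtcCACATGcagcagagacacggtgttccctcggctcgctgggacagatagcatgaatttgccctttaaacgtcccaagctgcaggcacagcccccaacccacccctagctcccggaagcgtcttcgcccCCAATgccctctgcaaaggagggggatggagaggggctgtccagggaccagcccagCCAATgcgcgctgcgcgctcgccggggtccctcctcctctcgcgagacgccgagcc
Ckm, chr7:19410844-19411093, plus strand: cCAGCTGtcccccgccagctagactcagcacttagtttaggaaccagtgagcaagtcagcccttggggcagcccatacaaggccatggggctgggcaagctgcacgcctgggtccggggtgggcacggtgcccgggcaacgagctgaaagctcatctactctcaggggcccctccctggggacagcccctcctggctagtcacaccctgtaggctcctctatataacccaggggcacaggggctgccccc

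The Slc25a5 window held 1 GC box and 2 E-boxes, the Slc25a4 window 2 CCAAT boxes and 1 E-box, and the Ckm window 1 E-box. Among all 32851 promoter windows of this table, 33.8% held a CCAAT box, 32.7% a GC box, 66.2% an E-box and 12.4% a TATA box. The ERR site (1.14% of all windows) and the ATF4 site (3.45%) matched in none of the 12 windows of the 8 members that the table lists. Neither Vdac2 nor Vdac3 was among those 8. Among those 8, a TATA box was matched in the Ckb window. Only the exact letters TATAAA were searched, so other TATA-like stretches, such as that in the Ckm window, are not marked. A match describes these letters and is not a bound site.

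Among the 10 members, 4 rose in the knockouts: Slc25a5 and all of Vdac1, Vdac2 and Vdac3 (edgeR quasi-likelihood test, Benjamini-Hochberg adjusted p under 0.05 over 2351 nuclear genes). None fell, 5 did not pass the test, and Ckb was too low to be tested. Across the nuclear genes tested, 8.46% were called higher and 6.85% lower, 15.3% in all. With DESeq2 1 member rose, Slc25a5, where 3.96% of these genes were called higher and 2.13% lower. The 5 that did not pass, Ckm, Ckmt2, Ak1, Slc25a4 and Slc25a3, had log2 fold changes between -0.13 and 0.33. In 6 of the 10 members the knockouts lay above the controls without overlap, in 1 (Ckb) below them, and 3 overlapped, where 16.8% of tested nuclear genes lay wholly above and 15.9% wholly below, 32.8% in all. Of the 6, Ckmt2 and Slc25a3 were apart with TMM scaling only, and overlapped when divided by nuclear counts alone. Vdac3 entered the test through its knockout libraries alone, since none of its controls reached the filter level, which is 14.04 on the CPM scale before TMM scaling, and Slc25a5 reached that level in 2 of 3 controls, so for these genes passing the filter was tied to being higher in knockouts.

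**Figure D1:**
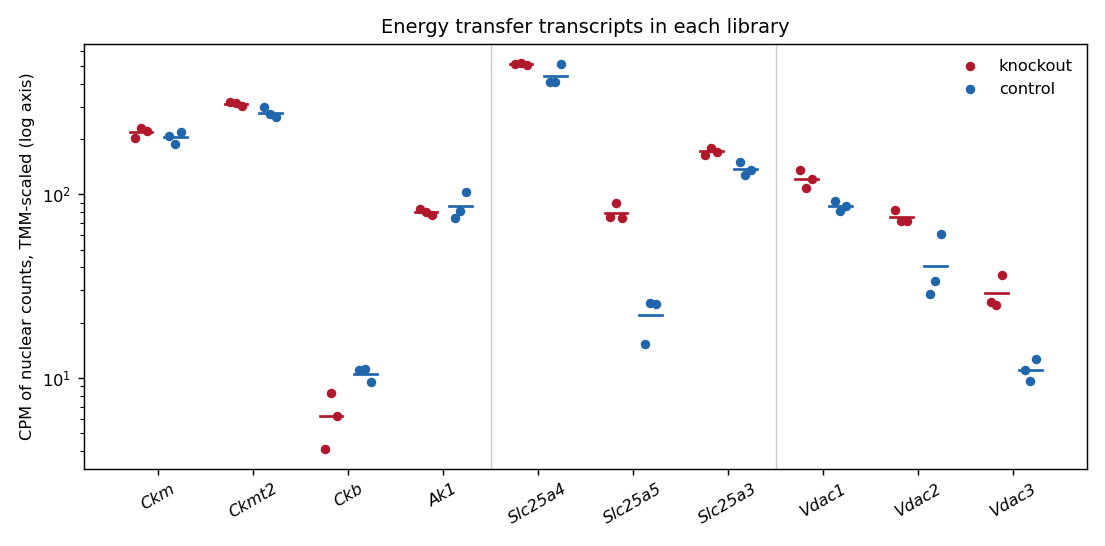
Level of each member in each library, as CPM of nuclear counts with TMM scaling on a log axis; points are libraries (3 knockout, 3 control), bars are group means, and vertical lines part kinases, carriers and channels. Slc25a5 stands at 74.5 to 89.4 CPM in knockouts and 15.4 to 25.6 CPM in controls, while Ckm, Ak1 and Slc25a4 overlap between the groups.

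Of the ADP/ATP carriers, Slc25a5 rose and Slc25a4 did not pass the test. Slc25a5 (ENSMUSG00000016319, chromosome X, 36795651 to 36798807, plus strand, GRCm38) had 55, 75 and 72 counts in knockouts and 7, 16 and 16 counts in controls, or 74.9, 89.4 and 74.5 CPM against 15.4, 25.6 and 25.5 CPM. All 3 knockouts stood above all 3 controls, by a wide margin. It rose 3.48-fold (log2 change 1.80 ± 0.23 SE, 95% interval 1.33 to 2.26, adjusted p = 3.22e-09 by edgeR) and passed the test in all 17 other settings tried. Slc25a5 is X-linked, and Xist was counted in knockout 1 and control 2 alone. With sex as a covariate its log2 fold change was 1.80 (adjusted p = 1.09e-08 by edgeR).

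Slc25a4 (ENSMUSG00000031633, chromosome 8, 46206797 to 46211284, minus strand), the carrier of heart and skeletal muscle, had 510.9, 517.2 and 508.9 CPM in knockouts and 411.2, 409.2 and 510.9 CPM in controls. The knockouts were nearly equal, and control 3 stood as high as they did. Its log2 fold change was 0.20 ± 0.13 SE (95% interval -0.05 to 0.46, adjusted p = 0.305 by edgeR), an interval that lies below that of Slc25a5. Slc25a31, the ADP/ATP carrier of the testis, had 0 counts in every library.

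The ADP/ATP carriers summed to 585.8, 606.6 and 583.4 CPM in knockouts and 426.6, 434.8 and 536.3 CPM in controls, without overlap (exact permutation p = 0.1, the smallest possible here). Divided by nuclear counts alone, with no TMM scaling, these sums overlapped between the groups. Within a library, which needs no scaling between libraries, Slc25a5 made up 12.8%, 14.7% and 12.8% of ADP/ATP carrier counts in knockouts and 3.61%, 5.88% and 4.75% in controls. The 95% Clopper-Pearson interval of the lowest knockout share was 10.1 to 15.8% and that of the highest control share 3.399 to 9.377%, so they did not meet, with counting error alone in view. The log2 ratio of Slc25a5 to Slc25a4 was -2.68 ± 0.14 in knockouts and -4.30 ± 0.34 in controls (SD, n = 3 each), a difference of 1.61. That is 3.06-fold, with an exact 2-sided permutation p of 0.1, the smallest that 3 against 3 allows, and 0.2 after adjustment over 6 ratios. The coding sequences of both genes are 77.6% identical, and their longest identical run is 20 bases. Slc25a5 also has processed pseudogenes, of which Gm5560 (98.3% identity) and Gm5529 (96.8%) were the 2 with counts, 8 in knockouts and 3 in controls together. With the counts of such copies added to their parent genes, an alternative chosen after the data were seen, the log2 fold change of Slc25a5 was 1.75.

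The phosphate carrier Slc25a3 (ENSMUSG00000061904, chromosome 10, 91116574 to 91124059, minus strand) had 164.8, 179.9 and 169.6 CPM in knockouts and 149.5, 127.9 and 135.3 CPM in controls. Its groups did not overlap with TMM scaling, yet the change missed the threshold (log2 change 0.33 ± 0.15 SE, 95% interval 0.03 to 0.62, unadjusted p = 0.0295, adjusted p = 0.122, edgeR). An unadjusted p under 0.05 was reached by 28.3% of tested nuclear genes. The log2 ratio of Slc25a3 to Slc25a4 was -1.58 ± 0.05 in knockouts and -1.68 ± 0.23 in controls (SD, n = 3 each), and they differed by less than the control spread (exact permutation p = 0.6, adjusted 0.6).

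**Figure D2:**
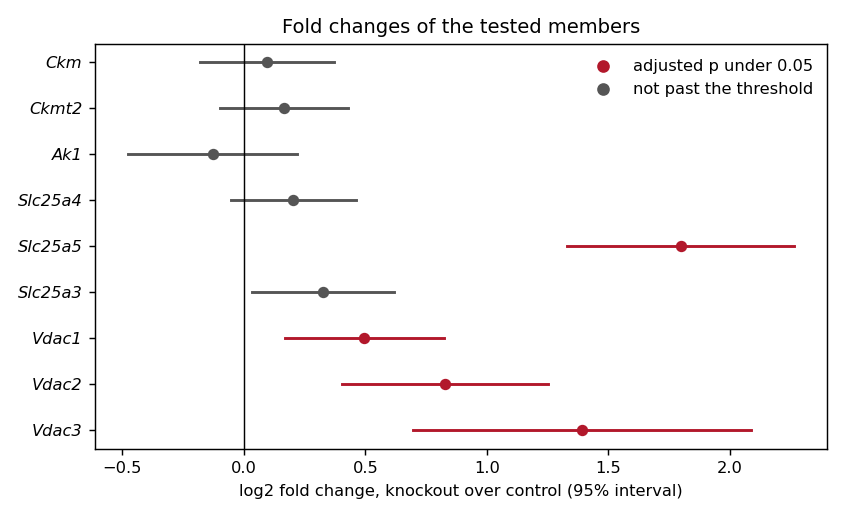
Log2 fold change of the 9 tested members, knockout over control, with 95% intervals from the edgeR fit; red marks an adjusted p under 0.05. The intervals of Slc25a5, Vdac1, Vdac2 and Vdac3 lie above 0, as does that of Slc25a3, which missed the adjusted threshold, and those of Ckm, Ckmt2, Ak1 and Slc25a4 cross it.

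All VDAC genes were higher in the knockouts. The estimated log2 change grew from Vdac1 (0.49), the highest of them per length, over Vdac2 (0.83) to Vdac3 (1.39), the lowest. Their intervals from the edgeR fit overlapped, at 0.17 to 0.82 for Vdac1, 0.40 to 1.25 for Vdac2 and 0.69 to 2.09 for Vdac3. The order is thus one of estimates only, and Vdac3 entered the test through its knockout libraries alone. Vdac1 encodes the most abundant channel isoform of most tissues, Vdac2 an isoform known to restrain the cell death protein Bak, and Vdac3 the third isoform. Summed over the 3 genes, VDAC counts were 243.8, 205.0 and 228.6 CPM in knockouts and 131.9, 124.7 and 159.1 CPM in controls (exact permutation p = 0.1, the smallest possible here).

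Vdac1 (ENSMUSG00000020402, chromosome 11, 52360860 to 52389397, plus strand) had 136.2, 108.4 and 121.0 CPM in knockouts and 92.4, 81.5 and 85.9 CPM in controls. The groups did not overlap, though knockout 2 lay near the highest control. It rose 1.41-fold (log2 change 0.49 ± 0.16 SE, adjusted p = 0.0286 by edgeR). This call was the least stable of the 4: it was lost without control 1 (adjusted p = 0.0555), control 2 (0.148), control 3 (0.0866) or knockout 1 (0.0903), with DESeq2 (0.316) and with no TMM scaling (0.227), and over all settings the adjusted p ran from 0.0199 to 0.316.

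Vdac2 (ENSMUSG00000021771, chromosome 14, 21825238 to 21845879, plus strand) had 81.7, 71.5 and 71.4 CPM in knockouts and 28.6, 33.6 and 60.5 CPM in controls. Control 3 was the high one among the controls and still lay below every knockout. Vdac2 rose 1.77-fold (log2 change 0.83 ± 0.21 SE, adjusted p = 0.00301 by edgeR). The call was lost without control 1 (adjusted p = 0.0553) or control 2 (0.0568) and with DESeq2 (0.125), and over all settings the adjusted p ran from 1.97e-04 to 0.125.

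Vdac3 (ENSMUSG00000008892, chromosome 8, 22577075 to 22593813, minus strand) had 19, 21 and 35 counts in knockouts and 5, 6 and 8 counts in controls, or 25.9, 25.03 and 36.2 CPM against 10.995, 9.59 and 12.7 CPM. Knockout 3 was the highest, and all knockouts exceeded all controls. It rose 2.62-fold (log2 change 1.39 ± 0.35 SE, adjusted p = 0.00226 by edgeR), a call lost with DESeq2 (0.0872). The pseudogene Vdac3-ps1 (chromosome 13) is 99.5% identical to Vdac3 over 853 bases and held 9, 13 and 10 counts in knockouts and 2, 8 and 1 in controls, so reads of the pair cannot be fully told apart. With both counted together the log2 fold change of Vdac3 was 1.25 (adjusted p = 5.70e-04 by edgeR).

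Relative to Vdac1 in the same library, Vdac3 was higher in the knockouts, with a log2 ratio of -2.06 ± 0.32 against -2.87 ± 0.17 in controls (SD, n = 3 each; exact permutation p = 0.1, adjusted 0.2). The log2 ratio of Vdac2 to Vdac1 was -0.70 ± 0.09 in knockouts and -1.14 ± 0.59 in controls, and its groups overlapped (exact permutation p = 0.4, adjusted 0.6). Vdac3 made up 10.6 to 15.8% of VDAC counts in knockouts and 7.69 to 8.33% in controls. The Clopper-Pearson interval of the lowest knockout share was 6.51 to 16.1% and that of the highest control share 2.76 to 18.4%, so they overlapped. These shares, and the ratio of Vdac3 to Vdac1, leave out the counts of Vdac3-ps1. In control 2 that pseudogene held 8 counts beside 6 of Vdac3 itself, so the shift in share is not secure. The coding sequences of Vdac1, Vdac2 and Vdac3 are 66.9 to 69.7% identical, with no shared run longer than 17 bases.

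**Figure D3:**
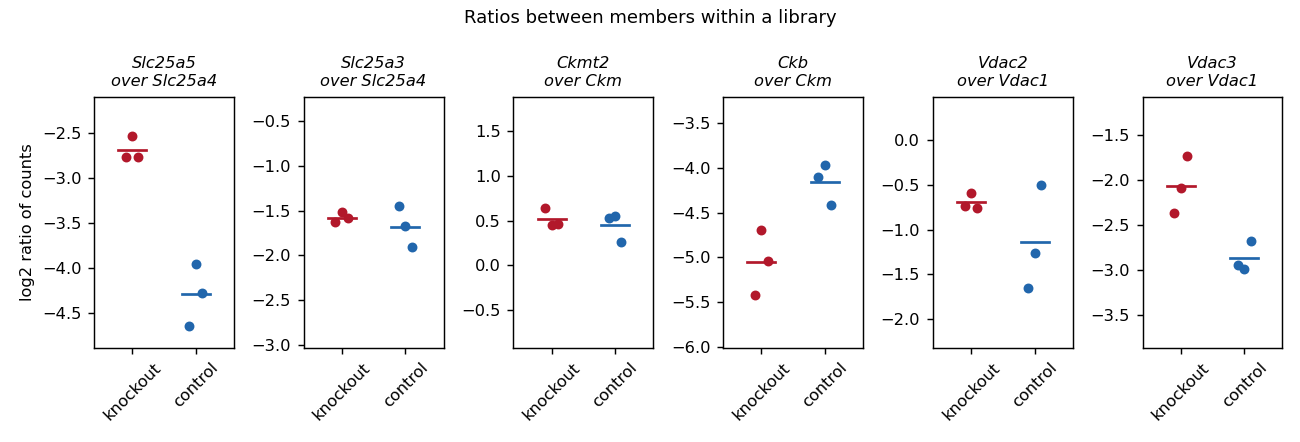
Log2 ratio of the counts of 2 members within each library, knockouts left of controls; points are libraries, bars are means, and each panel spans the same range of log2 units. The ratio of Slc25a5 to Slc25a4 is -2.68 in knockouts and -4.30 in controls on average, and the ratios of Ckmt2 to Ckm and of Slc25a3 to Slc25a4 overlap between the groups.

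Neither Ckm nor Ckmt2, the creatine kinases of muscle, passed the test. Their sum with Ckb and Ckmt1 was 524.5, 555.3 and 531.7 CPM in knockouts and 516.8, 471.6 and 493.4 CPM in controls, without overlap (exact permutation p = 0.1, the smallest possible here). This held with TMM scaling only: divided by nuclear counts alone, the groups overlapped. With no TMM scaling the log2 fold changes were 0.007 for Ckm and 0.07 for Ckmt2. Ckm (ENSMUSG00000030399, chromosome 7, 19404776 to 19422841, plus strand), the cytosolic muscle isoform, had 203.0, 231.2 and 220.3 CPM in knockouts and 206.7, 187.0 and 219.6 CPM in controls. Knockout 1 lay within the control range and the other knockouts above it, and the log2 fold change was 0.10 ± 0.14 SE (95% interval -0.18 to 0.37, adjusted p = 0.709 by edgeR). The interval covers changes of up to 0.37 on the log2 scale upward and 0.18 downward. Gene counts do not show whether any Ckm read comes from the transgene that carries its promoter. Ckm, Ckmt2 and Vdac2 each share exon bases with a gene on the other strand, and these partners held 1, 0 and 5 counts in knockouts and 0, 0 and 1 in controls.

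Ckmt2 (ENSMUSG00000021622, chromosome 13, 91853387 to 91876885, minus strand), the mitochondrial isoform, had 317.4, 315.8 and 303.1 CPM in knockouts and 299.1, 273.4 and 264.2 CPM in controls. With TMM scaling the knockouts lay just above the controls, and the change did not pass the test (log2 change 0.17 ± 0.13 SE, 95% interval -0.10 to 0.43, adjusted p = 0.452 by edgeR). The log2 ratio of Ckmt2 to Ckm was 0.52 ± 0.11 in knockouts and 0.45 ± 0.16 in controls (SD, n = 3 each; exact permutation p = 0.6, adjusted 0.6). Ckmt1, the mitochondrial isoform of other tissues, had 2 counts, both in knockout 3.

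Ckb (ENSMUSG00000001270, chromosome 12, 111669361 to 111672338, minus strand), the brain-type cytosolic isoform, had 3, 7 and 6 counts in knockouts and 5, 7 and 6 counts in controls, too few for the test. Scaled, this was 4.09, 8.34 and 6.21 CPM in knockouts and 10.995, 11.2 and 9.55 CPM in controls. The knockouts were lower without overlap, but the ratio of the summed counts was 0.598 with a 95% Poisson interval from 0.285 to 1.24, so a fall was not detectable at this depth. Its log2 ratio to Ckm was -5.05 ± 0.36 in knockouts and -4.16 ± 0.23 in controls (SD, n = 3 each; exact permutation p = 0.1, adjusted 0.2). Ckb accounted for 1.15% ± 0.362 of creatine kinase counts in knockouts and 2.15% ± 0.219 in controls (SD, n = 3 each).

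Ak1 (ENSMUSG00000026817, chromosome 2, 32621758 to 32635058, plus strand), the cytosolic adenylate kinase of muscle, had 83.1, 79.8 and 77.6 CPM in knockouts and 74.8, 81.5 and 103.4 CPM in controls. The knockouts lay inside the control range, and the log2 fold change was -0.13 ± 0.17 SE (95% interval -0.48 to 0.22, adjusted p = 0.688 by edgeR).

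In the authors' deposited table, the log2 fold changes of the 10 members had the same signs as here. The authors' deposited table gave Slc25a5 a value of 1.80 (false discovery rate 2.14e-11), Vdac3 1.43 (0.00121) and Vdac2 0.86 (0.00715). Vdac1, at 0.50, had a false discovery rate of 0.0522 in the authors' deposited table, just outside 0.05, and Ckb, at -0.64, had one of 0.572.

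Per length, the muscle isoforms dominated in both groups. As CPM per kb of annotated exon, Slc25a4 averaged 217.7 ± 1.84 in knockouts and 188.6 ± 24.7 in controls, and Ckmt2 210.0 ± 5.29 in knockouts and 187.7 ± 12.2 in controls (SD, n = 3 each). The pair overlapped in controls and did not in knockouts. Ckm followed at 74.9 ± 4.88 in knockouts and 70.2 ± 5.63 in controls, apart from its neighbours in both groups. The order below Ckm differed between the groups. In knockouts Slc25a5 came next, at 48.4 ± 5.15, overlapping with Vdac1 at 46.5 ± 5.31, ahead of Ak1 and Slc25a3, both at 30.9 and overlapping, and Vdac2 at 15.7 ± 1.25. In controls Ak1 at 33.4 ± 5.78 and Vdac1 at 33.1 ± 2.08 overlapped, Slc25a3 followed at 24.8 ± 1.98, and Slc25a5 stood at 13.5 ± 3.55, overlapping with Vdac2 at 8.57 ± 3.60. The lowest members were Vdac3 at 5.36 ± 1.15 and Ckb at 2.15 ± 0.73 in knockouts, and Ckb at 3.65 ± 0.31 and Vdac3 at 2.05 ± 0.29 in controls. Per kb of coding sequence, the first 3 places were the same, and Slc25a5 was the seventh member in knockouts and the eighth in controls. The 2 scales differ most for Vdac3, Vdac2 and Slc25a3, whose annotated exons cover 5420, 4769 and 5550 bases and whose coding sequences 849, 885 and 1071.

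**Figure D4:**
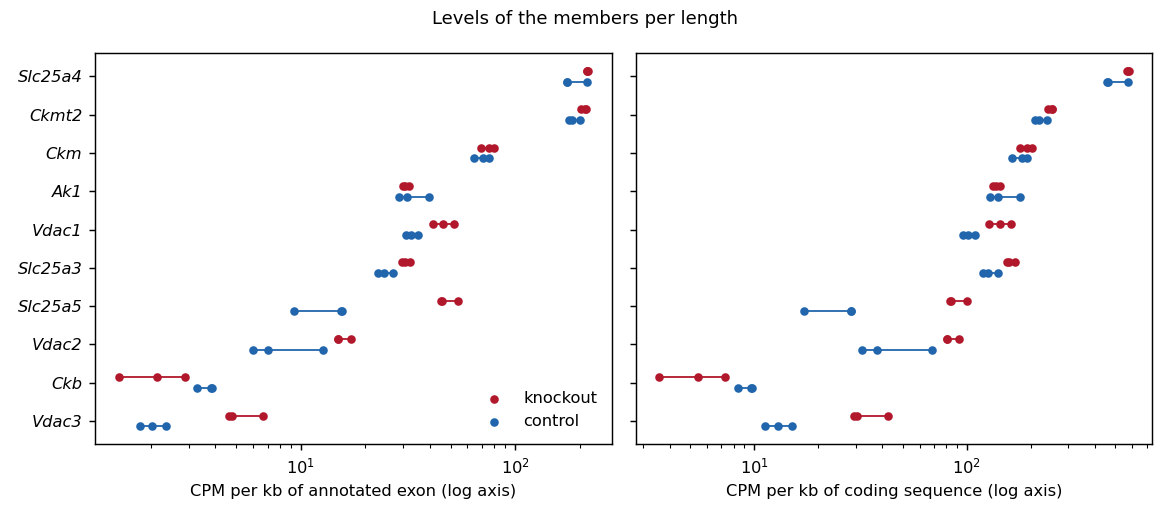
Level of each member per kb of annotated exon (left) and per kb of coding sequence (right), in CPM per kb on log axes; points are libraries, lines join the lowest and highest library of a group, and knockouts are drawn above controls. Slc25a4, Ckmt2 and Ckm are the 3 highest on both scales, and Slc25a5 stands at 48.4 per kb of exon in knockouts and 13.5 in controls on average.

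Taken as a share of nuclear counts without the ribosomal RNA loci, the 10 members held 0.931%, 0.949% and 0.937% in knockouts and 0.768%, 0.721% and 0.820% in controls (exact permutation p = 0.1, the smallest possible here). As a share of all nuclear counts they held 0.140%, 0.159% and 0.169% in knockouts and 0.118%, 0.140% and 0.153% in controls, and the groups overlapped (exact permutation p = 0.2).

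Other genes of the same pathway were followed in 5 lists with 103 genes, of which 29 were tested. Among these 29, 6 rose (20.7%) and none fell, beside 8.46% higher and 6.85% lower among all tested nuclear genes. The lists were chosen with earlier results of these data known, so these shares are a description only. Of the 6, Slc6a8 and Slc25a39 reached the filter level in 1 control each and Tubb4b in 2, with all 3 knockouts past it, so these genes passed the filter mainly through the group where they were higher. Creatine supply was represented by 1 tested gene of 5, which rose: Slc6a8, the creatine transporter of the cell membrane, had 43, 29 and 44 counts in knockouts and 6, 10 and 7 in controls. All knockouts stood far above the controls, and the rise was 3.37-fold (log2 change 1.75 ± 0.30 SE, adjusted p = 4.55e-06 by edgeR). Slc6a8 is X-linked, and with sex as a covariate its log2 fold change was 1.79 (adjusted p = 1.77e-06 by edgeR). The enzymes of creatine synthesis, Gatm and Gamt, had 2 counts each over all libraries, 1 in each group.

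Of 49 other inner membrane carriers, 12 were tested, 1 rose (8.33%, near the 8.46% of all tested genes) and none fell, with a median log2 fold change of 0.03 beside -0.01 over all tested nuclear genes. The one that rose was Slc25a39, known as a carrier of glutathione into mitochondria, with 31, 27 and 31 counts in knockouts and 3, 7 and 9 in controls (log2 change 1.65 ± 0.34 SE, adjusted p = 1.46e-04 by edgeR). The malate-aspartate carriers of the list did not pass the test, at -0.08 for Slc25a11, -0.47 for Slc25a12 and 0.24 for Slc25a13 on the log2 scale. The summed level of this list was 415.9 to 416.9 CPM in knockouts and 354.9 to 397.9 CPM in controls.

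Among 22 partners of VDAC and ANT, 13 were tested, 4 rose (30.8%) and none fell. Over all tested nuclear genes 8.46% were called higher and 6.85% lower. The median log2 fold change of the list was 0.29, beside -0.01 over all tested nuclear genes. Hspa9, a chaperone of the matrix that is also found at contact sites with VDAC, had 317.4, 258.6 and 302.0 CPM in knockouts and 118.7, 129.5 and 136.9 CPM in controls (log2 change 1.18 ± 0.14 SE, adjusted p = 4.56e-10 by edgeR). Tubb4b, a beta-tubulin, changed by 1.10 ± 0.30 SE on the log2 scale (adjusted p = 0.00494 by edgeR), and Des, the muscle intermediate filament desmin, by 0.51 ± 0.14 SE (0.00617). Hk1, the hexokinase that docks on VDAC, rose 1.54-fold (log2 change 0.62 ± 0.21 SE, adjusted p = 0.0286 by edgeR). Its call was lost without control 1 (0.184), control 3 (0.0736) or knockout 1 (0.186), with adjusted p from 0.00872 to 0.304 over all settings. The Hk1 call was also lost with no TMM scaling (0.156), with mtDNA rows and total library sizes (0.066) and with no low-count filter (0.0882). Hk2, the hexokinase of insulin-sensitive muscle, stood at 0.41 ± 0.17 SE and missed the threshold (adjusted p = 0.0922 by edgeR). With DESeq2, Slc6a8, Slc25a39 and Hspa9 were called, while Hk1, Tubb4b and Des were not. Des also missed the threshold with no TMM scaling (adjusted p = 0.143).

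The 2 lists on nucleotide balance showed no call. Of 14 adenylate and nucleoside diphosphate kinases 1 was tested, Ak3, the matrix GTP:AMP phosphotransferase, at a log2 fold change of 0.07 ± 0.35 SE. Of 13 genes of AMP sensing and deamination 2 were tested: Prkaa2, the catalytic AMPK subunit typical of muscle, at 0.30 ± 0.20 SE and Adk, adenosine kinase, at 0.45 ± 0.33 SE. None of the untested members of both lists exceeded 16 counts in any library, so changes in them were not detectable at this depth.

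**Figure D5:**
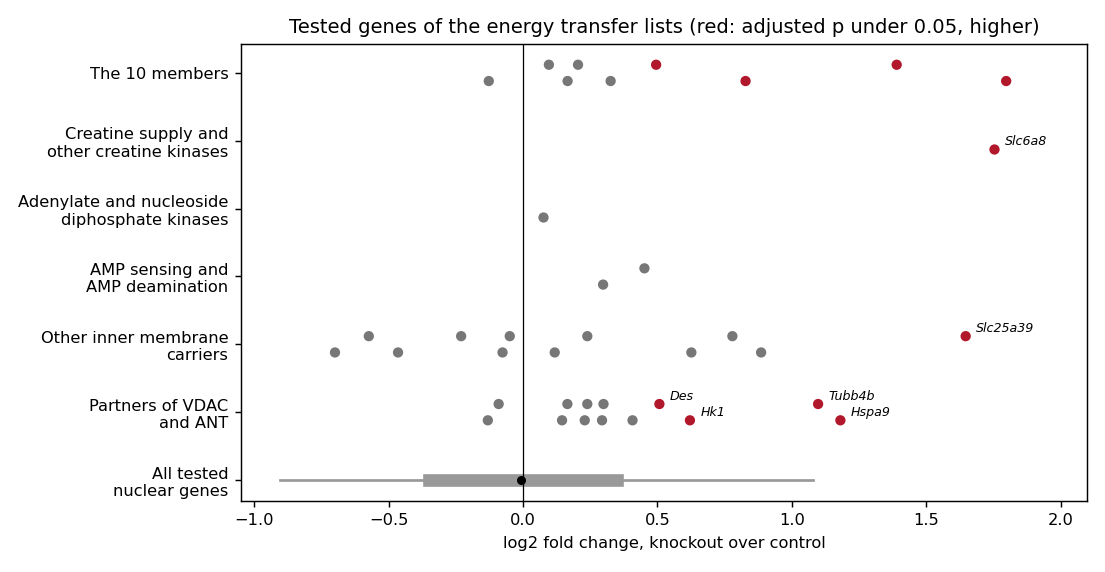
Log2 fold change, knockout over control, of each tested gene among the 10 members and in the 5 lists, with red for an adjusted p under 0.05; the bottom row gives the median, the middle 50% and the 5th to 95th percentile of all 2351 tested nuclear genes. In the lists, Slc6a8 at 1.75, Slc25a39 at 1.65, Hspa9 at 1.18 and Tubb4b at 1.10 lie beyond the 95th percentile of 1.08.

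Genes with the most similar pattern over the 6 libraries were found by Pearson correlation of log2 CPM among 2251 nuclear genes, as a description with no test, since all points share the group difference and the library scaling. Closest to Vdac1 were Sqstm1, an autophagy receptor (r = 0.985, log2 fold change 1.39), Gpi1, a glycolytic enzyme (0.984 and 0.45), and Rtn4, a protein of the endoplasmic reticulum (0.984 and 1.76). Closest to Slc25a4 were Dlst, a subunit of the 2-oxoglutarate dehydrogenase complex (r = 0.986, log2 fold change 0.25), Senp6 (0.981 and 0.81) and Cnbp (0.979 and 0.47). Closest to Ckmt2 were Polr2a, the largest subunit of RNA polymerase II (r = 0.996, log2 fold change 0.86), Prdx6, a peroxiredoxin (0.983 and 1.12), and Nf2 (0.980 and 0.72). These log2 fold changes were larger than that of Ckmt2 itself, 0.17.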

How the data were processed

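RNA of crude heart mitochondria was sequenced as 3 knockout and 3 control libraries, in read pairs on a MiSeq, per the labels' protocols. The authors deposited a whole-number count per gene for each library, not normalised. The submitters' processing notes name GRCm38, HISAT 0.1.6, edgeR 3.11.2, R 3.2.0 and featureCounts 1.3.5-p4. The authors also deposited normalised values, used here as a score. Their method, the strand setting and the handling of reads with several alignments are not stated in the labels. The authors' deposited table holds, per the file headers, log2 fold changes, log2 CPM, a likelihood ratio score, p-values and false discovery rates.

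Here 37570 of 39142 nuclear rows matched a symbol in GENCODE M21. The 35 mtDNA rows were left out, library sizes were sums of nuclear counts, rows were kept by filterByExpr (minimum count 10, minimum total 15), and knockout was compared with control by edgeR 4.0.16 in R 4.3.3 (TMM, robust quasi-likelihood test, no covariate, 2-sided, threshold 0.05 after Benjamini-Hochberg adjustment). SE values are those implied by the F statistic. Ratios used counts plus 0.5. Alternatives used limma 3.58.1 on log2(value + 1) and DESeq2 1.42.0, among others. A count of 3 corresponds to 3.10 to 6.60 CPM. Intervals from counts cover counting error only. Near-identical copies were found with BLAST 2.17.0 (at least 90% identity over 200 bases), and promoter sequences are from RefSeq. The procedure was tested on simulated data. Between replicates the counts varied beyond sampling noise (chi-square per degree of freedom 1.19 to 1.43).

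All 10 members are named, with every list gene called and the 3 nuclear genes best correlated with the member of highest level per kb of exon in each family, leaving out predicted and sex-linked genes. Other genes were named after their values were seen. The members and lists were chosen with earlier results of these data known.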

Additional observations from a re-analysis of the deposited data

How the results depend on the processing

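Slc25a5 kept its direction and its call in all 17 alternatives, with log2 fold changes from 1.64 to 1.91, and none of the members was called lower in any of them. Ckm, Ckmt2, Ak1, Slc25a3 and Slc25a4 passed the test in none. The members called higher were 4, and 1 (Slc25a5) with DESeq2, where Vdac1 stood at 0.48, Vdac2 at 0.83 and Vdac3 at 1.38 on the log2 scale (adjusted p 0.316, 0.125 and 0.0872). Vdac1 also missed the threshold at 0.40 with no scaling beyond the nuclear library size, at 0.42 with mtDNA rows and total library sizes, at 0.53 with no low-count filter and at 0.49 with the authors' normalised values. With each library left out in turn, the members called higher ranged from 2 to 4, Vdac1 from 0.43 to 0.59, Vdac2 from 0.67 to 1.25 and the log2 ratio differences from -0.01 to 0.21 (Slc25a3 to Slc25a4) and -0.02 to 0.12 (Ckmt2 to Ckm). Both ratio differences turned sign without control 3, at -0.014 and -0.021. The cause of these losses was not tested.

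Nuclear genes called numbered 199 higher and 161 lower, against 93 and 50 with DESeq2, 103 and 92 with a minimum count of 30, where fewer genes were tested, and 180 and 99 with no filter. Lower calls ranged from 106 (without knockout 1) to 147 with a library left out. Of all calls 55.3% were higher, against 44.5% with no scaling. List genes called higher numbered 6, and 3 each with DESeq2 and with a minimum count of 30. Itpr2 was the 1 list gene called lower, with mtDNA rows in the fit and without control 1 or control 2 (range 0 to 1). The replicate block gave 203 higher and 162 lower calls and the same 4 member calls; same-numbered libraries did not deviate together (correlations -0.02, -0.003 and 0.07), so the numbers are not taken as pairs. With a minimum count of 30 Vdac3 was not tested. Depth limits Ckb, Vdac3 and most list genes.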
